A study of Mus musculus with 10 samples.

Results

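The nuclear genes of mitochondrial oxidative phosphorylation were examined in lung eosinophils of P2ry14-null and wild-type (WT) mice. The genes were taken by symbol: those that start with Nduf, Uqcr or Atp5, those of the Cox4 to Cox8 families, and Sdha, Sdhb, Sdhc, Sdhd, Cycs and Cyc1. This gave 94 of the 35725 gene rows of the deposited count table. The 2 rows with such a symbol and the ending -ps, Atp5c1-ps and Uqcrh-ps1, were left out and held 0 to 11 reads per library. By symbol, 38 genes belonged to complex I, 8 to its Ndufaf assembly factors, 4 to complex II, 9 to complex III, 1 to cytochrome c, 18 to complex IV and 16 to complex V. The table held 0 rows of the mitochondrial chromosome, so the subunits encoded there were not analysed here.

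RNA was sequenced from 5 libraries of P2ry14-null mice and 5 of WT C57BL/6J mice, all male. Mice of both groups were sensitized with 50 µg of ovalbumin and 20 µg of a protease of the mould Aspergillus oryzae, instilled into the oropharynx on a pair of occasions. An aerosol of 1% ovalbumin followed 7 days after the last instillation, and lung eosinophils were sorted by flow cytometry 16 h later. The labels give neither the genetic background of the P2ry14-null strain nor whether each library came from a separate mouse, so the p-values speak only of how far these samples scatter, part of which may be technical. P2ry14 is a receptor that senses UDP-glucose and similar sugar nucleotides and signals through Gi proteins, and the comparison asks which transcripts of lung eosinophils differ when it is missing.

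Oxidative phosphorylation makes ATP at the inner mitochondrial membrane. Complex I (NADH dehydrogenase) and complex II (succinate dehydrogenase) pass electrons to ubiquinone, complex III hands them to cytochrome c, and complex IV (cytochrome c oxidase) reduces oxygen, while complexes I, III and IV pump protons that drive the ATP synthase, complex V. Most subunits are encoded in the nucleus and a small core in mitochondrial DNA. Eosinophils are known to keep mitochondria with a membrane potential and to draw on glycolysis as well as respiration.

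The libraries held 67.2 to 185.1 M counted reads each (M, 1e+06). The counts per 1e+06 reads (CPM) of P2ry14 were 24.2, 23.4, 21.8, 24.1 and 22.5 in P2ry14-null libraries 1 to 5, against 226.4, 206.0, 228.6, 190.4 and 205.7 in WT libraries 1 to 5, with a log2 fold change of -3.19 ± 0.06 (SE; edgeR quasi-likelihood test, Benjamini-Hochberg adjusted p = 3.74e-12), which fits the labels. The summed level of 12 eosinophil markers was 9182 to 9822 CPM in P2ry14-null and 9258 to 9690 CPM in WT libraries. P2ry14-null library 2 stood apart in markers of other cells: 6 alveolar type II markers summed to 2.38 to 45.7 CPM in P2ry14-null and 4.20 to 5.98 CPM in WT libraries, and 8 alveolar macrophage markers to 727.4 to 2163.3 CPM in P2ry14-null and 775.4 to 999.3 CPM in WT libraries, with P2ry14-null library 2 the highest each time. Most of the alveolar macrophage sum came from Chil3 and Car4, at 1520.5 and 589.7 CPM in P2ry14-null library 2 and at means of 412.2 and 459.2 CPM in WT libraries. For Fabp4, Fabp5 and Mrc1 the group means were at most 11.7 CPM, and for Marco, Krt79 and Plet1 at most 0.728 CPM. The sum of 6 mast cell and basophil markers was 35.4 to 50.0 CPM in P2ry14-null and 51.7 to 70.9 CPM in WT libraries, without overlap. Most of it came from Hdc (mean 29.3 CPM in P2ry14-null and 46.0 CPM in WT libraries) and Kit (10.2 and 11.5 CPM). Group means of Cpa3, Mcpt8, Fcer1a and Ms4a2 were at most 0.585 CPM. None of the markers in these lists was at 0 in all libraries, and the part of other cells in the results below was not tested.

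Several of the genes carry, in their promoters, the letters bound by nuclear respiratory factor 1 (NRF1), a transcription factor known for driving nuclear genes of the respiratory chain. Windows from 250 bases before to 50 bases after the start, from RefSeq on GRCm38.p6, were matched to 77 of the 94 genes. The NRF1 letters, GCGCA followed by any base (N) and GCGC, were searched on both strands. They occurred in 19 of the 77 genes (24.7%), against 1193 of the 11931 tested genes with such a window and 5.19% of all genes with one. By complex they occurred in 7 of 33 genes of complex I, 2 of 7 of its assembly factors, 2 of 3 of complex II, 1 of 5 of complex III, 1 of 13 of complex IV and 6 of 15 of complex V. The stretches below show the match in capitals with 15 bases on each side, on the gene's own strand. They are from the gene with the highest level per length in a complex among those whose match and both flanks lie within the 250 bases before the start. Complex III is not shown because its matched gene, Uqcrc1, did not meet this limit. For Ndufa8 the letters match on the opposite strand, so the capitals read GCGC, any base and TGCGC.
Ndufa8 (complex I), chr2:36049344-36049383, minus strand: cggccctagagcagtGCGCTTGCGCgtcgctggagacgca
Ndufaf4 (complex I assembly), chr4:24897955-24897994, plus strand: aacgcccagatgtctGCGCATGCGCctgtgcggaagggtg
Sdha (complex II), chr13:74350314-74350353, minus strand: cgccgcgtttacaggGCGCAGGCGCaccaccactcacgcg
Cox6a1 (complex IV), chr5:115349096-115349135, minus strand: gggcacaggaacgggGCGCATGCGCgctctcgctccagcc
Atp5h (complex V), chr11:115420036-115420075, minus strand: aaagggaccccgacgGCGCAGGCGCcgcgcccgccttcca
Among these stretches the last base of the match lay 20 bases before the start of Ndufa8, 103 before that of Ndufaf4, 88 before that of Sdha, 152 before that of Cox6a1 and 131 before that of Atp5h.

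The ETS letters CCGGAAGT, of the family of GABP (also called NRF2 in respiratory gene control), occurred in 5 of the 77 genes (6.49%), against 8.19% of tested genes with a window. The YY1 letters AAGATGGCG occurred in 8 genes (10.4%, against 3.13%), and the letters TCAAGGTCA of estrogen-related receptors in 2 genes (2.6%, against 0.318%). The 250 bases before the start of Atp5h, which encodes subunit d of the ATP synthase stalk, held both the NRF1 letters and, on the opposite strand, the ETS letters, and are shown with both in capitals.
Atp5h, chr11:115419920-115420169, minus strand: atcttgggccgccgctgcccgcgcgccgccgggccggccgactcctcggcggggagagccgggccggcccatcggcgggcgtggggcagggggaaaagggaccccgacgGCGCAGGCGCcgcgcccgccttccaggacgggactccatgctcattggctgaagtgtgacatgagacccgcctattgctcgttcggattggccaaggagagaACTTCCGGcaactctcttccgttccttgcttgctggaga
A match describes these letters only. The median GC content of the windows was 58.5% for the oxidative phosphorylation genes and 59.0% for tested genes. The 19 genes with NRF1 letters had a median log2 fold change of -0.05 (17 below 0), and the 56 tested genes with a window and without these letters one of -0.06 (50 below 0).

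Of the 94 genes, 89 had enough reads to be tested. Their transcripts were at similar levels in P2ry14-null and WT eosinophils, and 0 of the 89 passed the edgeR quasi-likelihood test at an adjusted p of 0.05, where 6 of all 15586 tested genes (0.0385%) did. DESeq2 also called 0 of the 89, where it called 19 of 16357 genes (0.116%). At an unadjusted p of 0.05, 1 gene passed in edgeR, Cox7a2l, against 4.13% of all tested genes (2.89% in DESeq2). In 0 of the 89 did the libraries of the groups not overlap, against 0.648% of all tested genes. The lowest adjusted p among the 89 was 0.999 in edgeR.

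The data bounded the differences closely. The 95% interval of the fold change lay within 1.25-fold either way, 0.32 on the log2 scale, for 83 of the 89 genes (93.3%), against 57.9% of all tested genes, most of which have fewer reads. At a mean of 10 CPM or more it was 69 of 71 of these genes (97.2%), against 92.3% of 7630 tested genes. At that level the median SD within groups, in log2 CPM, was 0.13 for the oxidative phosphorylation genes and 0.09 for all tested genes. Log2 fold changes had a median SE of 0.08 over the 89 and 0.09 over all tested genes. The remaining 6 were Cox6a2, Cox6b2, Cox7a1, Cox7a2l, Cycs and Ndufb4, the last of which was named after its values were seen. Their intervals on the log2 scale ran from -0.91 to 0.70 for Cox6a2, from -0.60 to 0.32 for Cox6b2 and from -0.40 to 0.22 for Ndufb4.

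**Figure D1:**
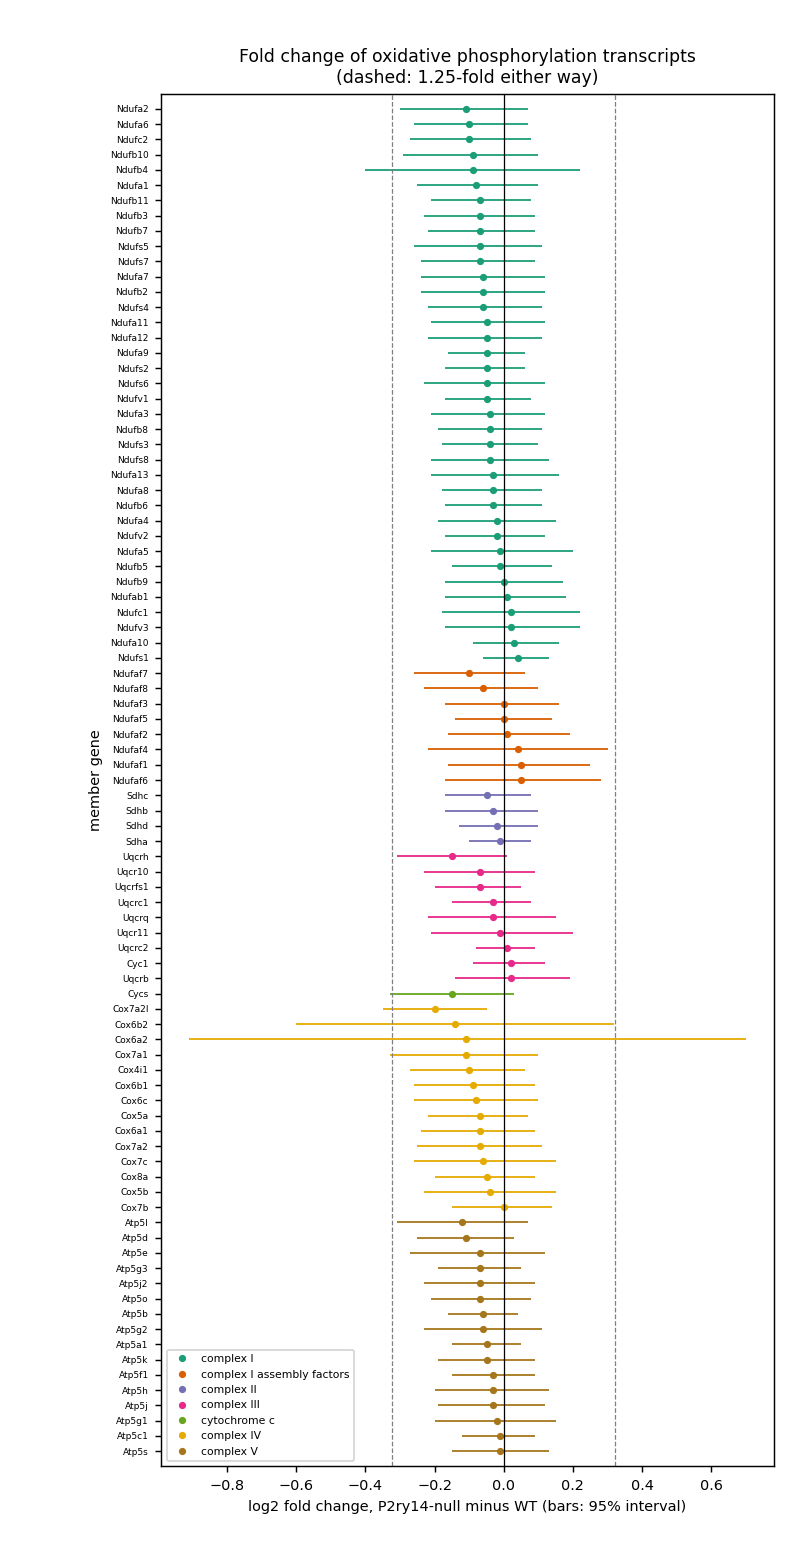
Log2 fold change, P2ry14-null minus WT, of the 89 tested genes (points, coloured by complex) with 95% intervals (bars); dashed lines mark 1.25-fold either way. The points lie between -0.20 and 0.05, and 83 of the 89 intervals stay between the dashed lines.

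Small differences nevertheless leaned to one side. The log2 fold change was below 0 for 76 of the 89 genes (85.4%), against 48.8% of all tested genes, and its median was -0.05, against 0.00 for all tested genes. Among the single libraries left out, WT library 1 changed this lean the most, and the cause of the lean was not tested. Without that library 41 of the 89 genes lay below 0 and the median was 0.01, while without WT library 3 there were 82 below 0 and the median was -0.09. Without P2ry14-null library 2, which stood apart in markers of other cells, 72 lay below 0 and the median was -0.05. Scaled by total counts alone, 60 of the 89 lay below 0 with a median of -0.02, where the median of all tested genes was 0.03. Transcripts per 1e+06 (TPM), a level per gene length, rescale each library and so move the fold changes of all genes alike. By mean TPM 46 of the 89 genes were lower in P2ry14-null, against 29.0% of the 14193 tested genes with an annotated length. In these bulk libraries fewer cells of a type and less RNA per cell cannot be told apart.

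The transcripts moved together from library to library. Summed over the 89 genes, the level was 4320, 4169, 4140, 4153 and 4008 CPM in P2ry14-null libraries 1 to 5, against 4908, 4393, 3866, 4251 and 4108 CPM in WT libraries 1 to 5. The WT libraries included both the highest and the lowest sum, and all P2ry14-null libraries lay between them. The mean was 4158 ± 111 CPM in P2ry14-null and 4305 ± 389 CPM in WT libraries (SD, n = 5 each).

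**Figure D2:**
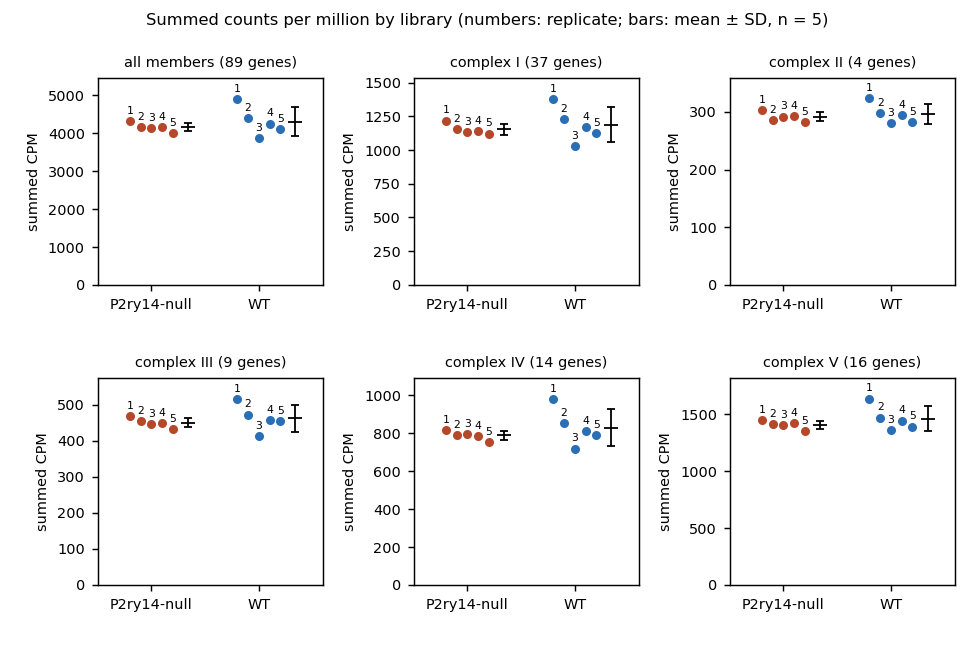
Summed CPM of all 89 tested genes and of complexes I to V by library (points, numbered by replicate) with mean ± SD (n = 5 each), on axes that start at 0. For the 89 genes together the P2ry14-null libraries lie between 4008 and 4320 CPM, within the WT range of 3866 to 4908 CPM.

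WT library 1 was the highest of the 10 libraries in 74 of the 89 genes, a place it held in 18.5% of all tested genes. WT library 3 was the lowest in 59 of the 89, against 11.8% of all tested genes. The median deviation of the 89 genes from their mean over the 10 libraries, in log2 CPM, was 0.04, -0.02, -0.04, -0.03 and -0.06 in P2ry14-null libraries 1 to 5, against 0.25, 0.07, -0.17, 0.00 and -0.05 in WT libraries 1 to 5. Only WT libraries 1 and 3 thus departed by more than 0.1. The median deviation of all tested genes lay between -0.01 and 0.00 in every library.

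**Figure D3:**
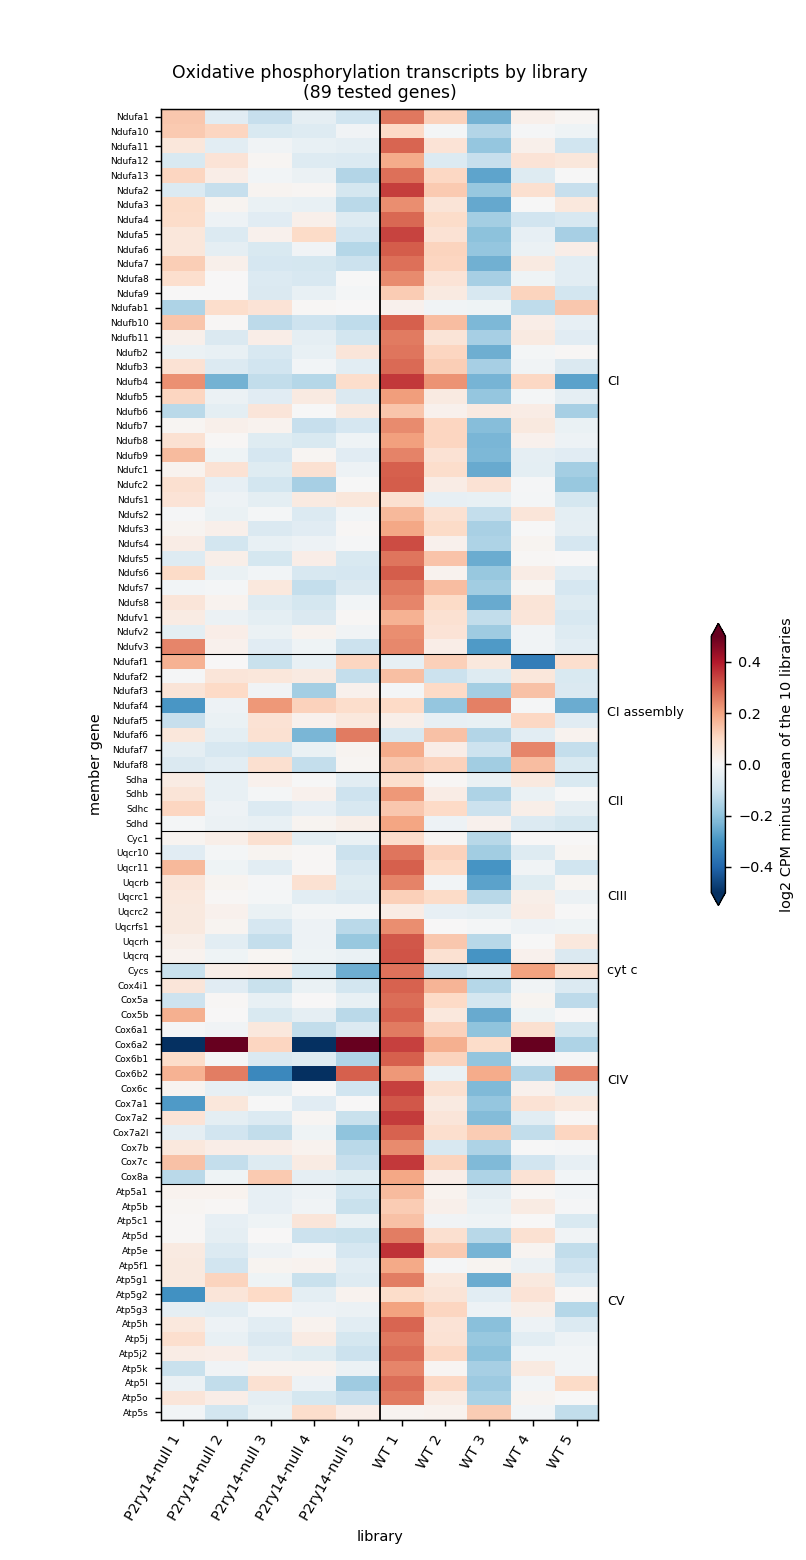
Deviation of each tested gene (rows, grouped by complex) from its mean over the 10 libraries, in log2 CPM, with P2ry14-null libraries left and WT libraries right of the line; colours saturate at 0.5 either way. The column of WT 1 is high and that of WT 3 low in most rows of complexes I to V, while the complex I assembly factors follow this pattern less closely.

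Other gene groups shared part of this pattern. In WT libraries 1 and 3 the median deviation was 0.27 and -0.06 for 93 cytosolic ribosomal protein genes and 0.14 and -0.11 for 78 mitochondrial ribosomal protein genes. The genes concerned are short: the median annotated exon length was 1046 bases for the 89 oxidative phosphorylation genes and 3026 bases for tested genes. Among other tested genes under 1000 bases, the median deviation was 0.13 in WT library 1 and -0.07 in WT library 3, and among those of 4000 bases or more it was -0.10 and 0.06. The 42 oxidative phosphorylation genes under 1000 bases stood at 0.28 and -0.19 in these libraries, farther out than other genes of that length. The part of transcript length in the deviation of the 2 libraries was not tested.

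**Figure D4:**
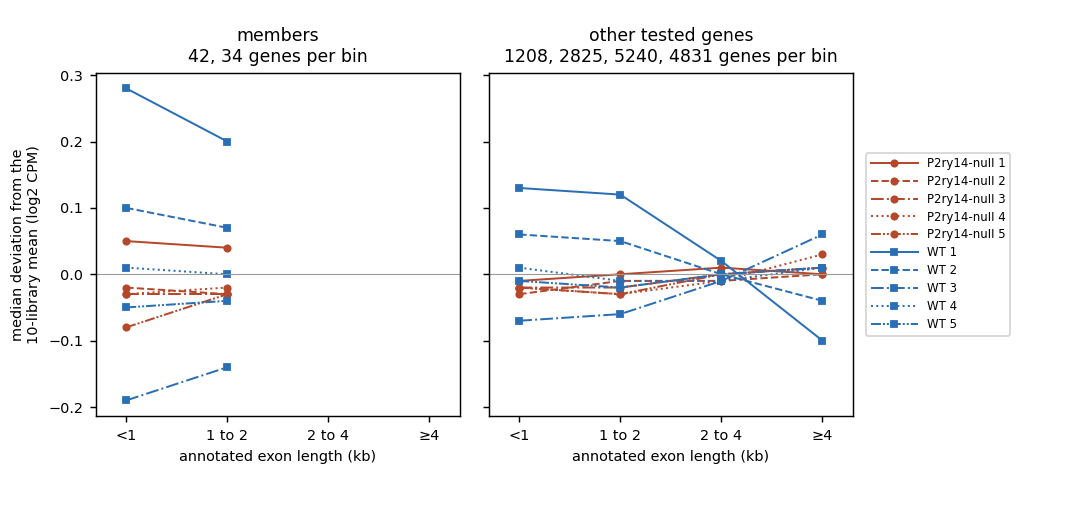
Median deviation from the 10-library mean, in log2 CPM, by annotated exon length for oxidative phosphorylation genes (left; bins with under 20 genes are not drawn) and for the other tested genes (right), with a line per library. WT 1 is at 0.28 and WT 3 at -0.19 for oxidative phosphorylation genes under 1 kb, against 0.13 and -0.07 for the other genes of that length, where both lines change sides at 4 kb and more.

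The fold change varied with length too. Of other tested genes under 1000 bases, 63.2% lay below 0 (median -0.04), and of those of 4000 bases or more 34.3% (median 0.03), against 40 of the 42 oxidative phosphorylation genes under 1000 bases (median -0.07). The oxidative phosphorylation genes together made up 1.16% of TPM in P2ry14-null and 1.17% in WT libraries.

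By length-scaled level, complex I summed to 3460 ± 135 TPM in P2ry14-null and 3469 ± 318 TPM in WT libraries (SD, n = 5 each). Complex IV summed to 3145 ± 69.2 TPM in P2ry14-null and 3203 ± 288 TPM in WT libraries, and complex V to 3147 ± 65.8 TPM in P2ry14-null and 3164 ± 210 TPM in WT libraries. Complex III came to 1317 ± 43.1 TPM in P2ry14-null and 1326 ± 103 TPM in WT libraries. Complex II was lower still, with 444.8 ± 9.21 TPM in P2ry14-null and 437.8 ± 18.3 TPM in WT libraries, and the assembly factors and cytochrome c followed. Such sums grow with the number of genes, which was 38, 4, 9, 18 and 16 for complexes I to V. The median TPM per gene, over all 10 libraries, was 61.2, 116.3, 125.4, 98.2 and 176.6 for complexes I to V, a different order. In WT libraries the sums of complexes I, IV and V lay closer together than the largest of their SDs, and in P2ry14-null libraries those of complexes IV and V did, while the steps down to complex III and on to complex II were many times the SDs. In each of complexes I to V the difference between the genotypes was smaller than the SD of either group.

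**Figure D5:**
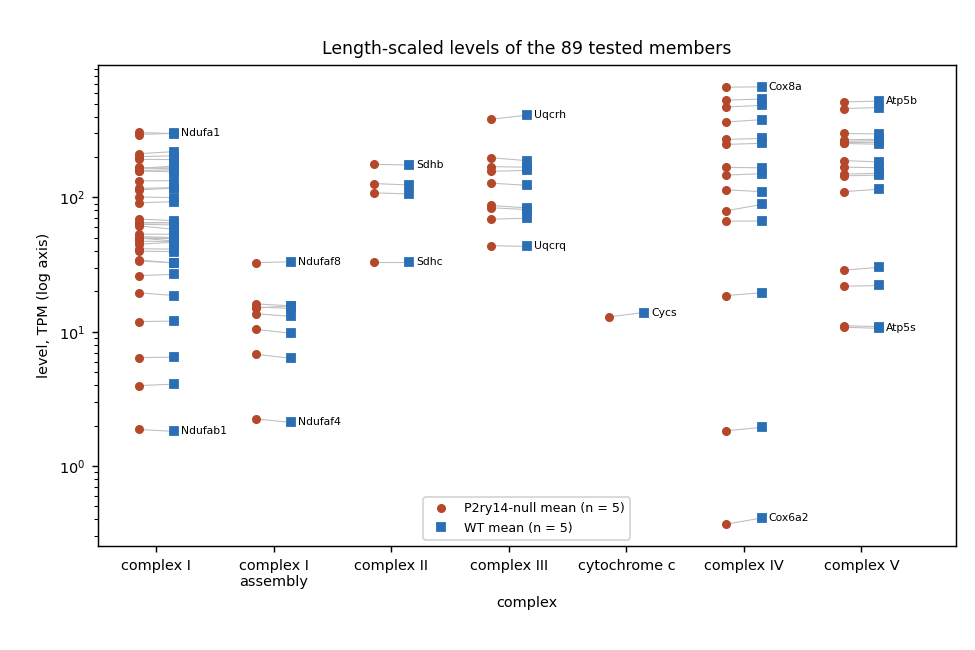
Mean TPM of each tested gene in P2ry14-null (circles) and WT libraries (squares), joined by a line, on a log axis by complex; the highest and lowest gene of each complex is named. The lines are close to level, from Cox8a at 662.6 TPM in P2ry14-null and 666.0 TPM in WT libraries to Cox6a2 at 0.369 TPM in P2ry14-null and 0.41 TPM in WT libraries.

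Complex I oxidizes NADH, and its named accessory subunits help to build and hold the complex around the catalytic core. Of its 37 tested genes 32 lay below 0, with a median log2 fold change of -0.05 and a range from -0.11 to 0.04. Without WT library 1 this became 15 of 37 and a median of 0.01, and without WT library 3 it became 34 of 37 and -0.09. The summed level was 1219, 1154, 1134, 1139 and 1122 CPM in P2ry14-null libraries, against 1377, 1231, 1031, 1172 and 1127 CPM in WT libraries. WT libraries 1 and 3 again enclosed all others.

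The lowest level per length among the tested genes of complex I was that of Ndufab1, the acyl carrier protein, whose annotated exons span 4387 bases and which was named after its values were seen. It averaged 1.87 ± 0.138 TPM in P2ry14-null and 1.81 ± 0.148 TPM in WT libraries.

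The smallest unadjusted p-values in complex I belonged to Ndufa2, Ndufa6 and Ndufc2, all accessory subunits. Ndufa2 had 33.4, 32.3, 35.4, 35.2 and 32.9 CPM in P2ry14-null libraries, against 44.5, 38.3, 30.7, 37.0 and 32.4 CPM in WT libraries. The P2ry14-null values fell inside the WT range, and the log2 fold change was -0.11 ± 0.09 (SE; edgeR quasi-likelihood unadjusted p = 0.215). That of Ndufa6 was -0.10 ± 0.08 and that of Ndufc2 -0.10 ± 0.08. Without WT library 1 all 3 were at -0.03. The highest levels per length in complex I were those of Ndufa4 and Ndufa1. Ndufa1, an X-linked subunit of the membrane arm, averaged 294.1 ± 20.9 TPM in P2ry14-null and 300.3 ± 31.2 TPM in WT libraries. Ndufa4, which is filed here by its symbol but is known as a subunit of complex IV, averaged 304.6 ± 13.4 TPM in P2ry14-null and 299.1 ± 32.5 TPM in WT libraries. Its log2 fold change was -0.02 ± 0.08. Its paralog Ndufa4l2, known as a target of hypoxia signalling, had 8 reads in all over the P2ry14-null libraries and 11 over the WT libraries and was not tested.

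The Ndufaf genes encode factors that assemble complex I and are not part of it. Of the 8, 3 lay below 0 and the median log2 fold change was 0.01. They did not follow the library pattern as closely: their median deviation was 0.06 in WT library 1 and -0.09 in WT library 3. Ndufaf7, a methyltransferase of a core subunit, had 14.7, 14.3, 14.2, 14.8 and 15.3 CPM in P2ry14-null libraries, against 17.2, 15.5, 14.1, 17.9 and 13.9 CPM in WT libraries, with overlapping groups. Its log2 fold change was -0.10 ± 0.07 (SE; edgeR quasi-likelihood unadjusted p = 0.189). The log2 fold change was -0.06 ± 0.08 for Ndufaf8, the factor with the highest level per length (32.7 ± 1.87 TPM in P2ry14-null and 33.2 ± 2.80 TPM in WT libraries), and 0.05 ± 0.10 for Ndufaf6. Ndufaf3 averaged 8.62 ± 0.605 CPM in P2ry14-null and 8.63 ± 0.761 CPM in WT libraries.

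Complex II, which is also the succinate dehydrogenase of the citric acid cycle, is the complex encoded wholly in the nucleus. Sdha, the flavoprotein that oxidizes succinate, had 136.8, 129.7, 135.1, 133.0 and 128.3 CPM in P2ry14-null libraries, against 140.9, 133.4, 129.9, 137.6 and 126.1 CPM in WT libraries. The groups overlapped throughout, and the log2 fold change was -0.01 ± 0.04, with a 95% interval from -0.10 to 0.08. Sdhb, the iron-sulfur subunit, was at -0.03 ± 0.06, and the membrane anchors Sdhc and Sdhd at -0.05 ± 0.06 and -0.02 ± 0.05. All 4 thus lay just below 0, and without WT library 1 only Sdhc did. Without WT library 3 all 4 did, with a median of -0.05. Per length Sdhb was the highest of the 4, with 176.4 ± 5.43 TPM in P2ry14-null and 174.5 ± 12.8 TPM in WT libraries, and Sdhc the lowest, with 33.3 ± 1.80 TPM in P2ry14-null and 33.3 ± 1.81 TPM in WT libraries.

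Complex III carries electrons from ubiquinol to cytochrome c. Of its 9 tested genes 6 lay below 0, with a median log2 fold change of -0.03. Without WT library 1 this became 4 of 9 and 0.02, and without WT library 3 it became 9 of 9 and -0.07. Uqcrh, the hinge subunit beside cytochrome c1, had 80.6, 76.1, 72.8, 77.6 and 69.4 CPM in P2ry14-null libraries, against 98, 86.8, 71.7, 78.8 and 81.9 CPM in WT libraries. WT libraries 3 and 4 lay within the P2ry14-null range and WT library 1 above all others, and the log2 fold change was -0.15 ± 0.07 (SE; edgeR quasi-likelihood unadjusted p = 0.0675), or -0.08 without WT library 1. Uqcrh also had the highest level per length in the complex, 382.0 ± 20.4 TPM in P2ry14-null and 409.9 ± 39.8 TPM in WT libraries. Uqcrfs1, the Rieske iron-sulfur protein, and Uqcr10, a small accessory subunit, were both at -0.07 on the log2 scale, or at -0.02 and -0.01 without WT library 1. Uqcrb, the ubiquinone-binding subunit, was at 0.02 ± 0.08, or 0.10 without that library.

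Cytochrome c, the mobile carrier between complexes III and IV, is also known for triggering caspases once it leaves mitochondria. Its somatic gene Cycs had 14.1, 15.5, 15.7, 14.4 and 12.8 CPM in P2ry14-null libraries, against 18.4, 14, 14.5, 17.5 and 16.2 CPM in WT libraries. WT libraries 2 and 3 lay within the P2ry14-null range. The log2 fold change was -0.15 ± 0.08 (SE; edgeR quasi-likelihood unadjusted p = 0.0914), with a 95% interval from -0.33 to 0.03, and was -0.10 without WT library 1. Of the stretches of 50 bases in its longest GENCODE vM21 transcript, 28.5% also occurred in other genes, among them 10 pseudogenes, so its count is uncertain.

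Complex IV hands electrons to oxygen, and several of its nuclear subunits come in isoforms that differ between tissues. All 14 tested genes lay below 0, with a median log2 fold change of -0.08, the lowest among complexes I to V. Without WT library 1 it was 9 of 14 and -0.01, and without WT library 3 it was 14 of 14 and -0.13. The summed level was 814.2, 791.1, 796.7, 784.8 and 751.9 CPM in P2ry14-null libraries, against 978.2, 853.9, 718.4, 810.2 and 788.0 CPM in WT libraries.

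Cox7a2l, also called SCAF1, had the largest difference from 0 among the 89 genes. The genetic background of the P2ry14-null strain was not given, so for this gene, as for every other gene here, a strain difference and the genotype cannot be told apart. Cox7a2l had 34.1, 32.9, 32.2, 34.6 and 30.5 CPM in P2ry14-null libraries, against 43.0, 37.2, 38.3, 32.2 and 37.9 CPM in WT libraries. Of the WT libraries 4 lay above every P2ry14-null library and library 4 lay among them. The mean was 32.9 ± 1.63 CPM in P2ry14-null and 37.7 ± 3.85 CPM in WT libraries, and the log2 fold change was -0.20 ± 0.07 with a 95% interval from -0.35 to -0.05. The edgeR quasi-likelihood test gave an unadjusted p of 0.0115 and a Benjamini-Hochberg adjusted p of 0.999, and DESeq2 an unadjusted p of 0.00813. In the alternatives tried the log2 fold change of Cox7a2l stayed between -0.25 and -0.15. Unlike most of the 89 genes, Cox7a2l was not low in WT library 3. In its transcript 17.7% of the stretches of 50 bases also occurred in other genes.

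Among the isoforms, the forms known from most tissues made up nearly all the transcript level. Cox4i1 averaged 365.2 ± 18.2 TPM in P2ry14-null and 379.1 ± 40.6 TPM in WT libraries. Cox4i2, a form known from lung and low oxygen, made up 0.0533% of the Cox4i level in P2ry14-null and 0.0498% in WT libraries, from 35 reads in all in P2ry14-null and 41 in WT libraries. Cox6a1 averaged 531.0 ± 23.8 TPM in P2ry14-null and 540.6 ± 54.1 TPM in WT libraries, and Cox6a2, the heart and muscle form, 0.369 ± 0.236 TPM in P2ry14-null and 0.41 ± 0.0777 TPM in WT libraries. Cox6b1 averaged 471.8 ± 28.7 TPM in P2ry14-null and 484.3 ± 51.0 TPM in WT libraries, and Cox6b2, the testis form, 1.83 ± 0.606 TPM in P2ry14-null and 1.94 ± 0.241 TPM in WT libraries. Tissue-restricted Cox6a2 and Cox6b2 were thus under 1% of their families in both genotypes.

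The genes with a Cox7a symbol were more mixed, with Cox7a2l grouped among them by its symbol alone. Without it, Cox7a2 stood at 270.7 TPM and Cox7a1 at 18.6 TPM in P2ry14-null libraries, and at 275.0 and 19.5 TPM in WT libraries. In P2ry14-null libraries Cox7a2 made up 73.4%, Cox7a2l 21.6% and Cox7a1 5.03% of the summed TPM of these 3 genes, and in WT libraries 71.8%, 23.1% and 5.08%. Cox7a1, known as the heart and muscle form, had 3.04, 3.85, 3.70, 3.56 and 3.71 CPM in P2ry14-null libraries, against 4.6, 3.82, 3.24, 3.90 and 3.85 CPM in WT libraries. It was present in every library (205 to 594 in P2ry14-null and 456 to 609 reads in WT libraries), with overlapping groups and a log2 fold change of -0.11 ± 0.10, or -0.05 without WT library 1. The 5 markers of cardiac and skeletal muscle summed to 0.182 to 0.258 CPM in P2ry14-null and 0.176 to 0.274 CPM in WT libraries. This was below Cox7a1 itself in each library. The 5 markers of smooth muscle and pericytes summed to 10.7 to 12.2 CPM in P2ry14-null and 11.5 to 13.3 CPM in WT libraries. Nearly all of that sum came from Acta2. Group means of Myh11, Tagln, Cnn1 and Rgs5 were at most 0.227 CPM.

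Cox8a, a small subunit of the complex, had the highest level per length of all 94 genes, 662.6 ± 40.5 TPM in P2ry14-null and 666.0 ± 41.7 TPM in WT libraries. Its paralogs were nearly silent: Cox8b had 11 reads in all in P2ry14-null and 10 in WT libraries, and Cox8c 0 reads in all 10. Cox7b2, a testis form, also had 0 reads in all 10 libraries, while Cox7b averaged 41.1 ± 2.08 CPM in P2ry14-null and 41.2 ± 4.36 CPM in WT libraries. A count of 0 allows up to 3 reads, or 0.0165 to 0.0445 CPM depending on the library, and covers counting error only. Cox6c and Cox7a2 were at -0.08 ± 0.08 and -0.07 ± 0.08 on the log2 scale and Cox4i1 at -0.10 ± 0.08. Without WT library 1 they were at 0.00, 0.02 and -0.03, in that order of genes.

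Complex V turns the proton gradient into ATP. All 16 tested genes lay below 0, with a median log2 fold change of -0.06 and a range from -0.12 to -0.01. Without WT library 1 it was 8 of 16, and without WT library 3 it was 15 of 16 with a median of -0.08. Atp5b, the catalytic beta subunit, had the highest level per length in the complex, and by reads it had 365.5, 364.5, 353.0, 359.1 and 335.9 CPM in P2ry14-null libraries, against 396.7, 369.0, 354.2, 373.7 and 361.7 CPM in WT libraries. The groups overlapped, and the log2 fold change was -0.06 ± 0.05, with a 95% interval from -0.16 to 0.04. Atp5d, the delta subunit of the rotor stalk, was at -0.11 ± 0.06 (SE; edgeR quasi-likelihood unadjusted p = 0.12), or -0.05 without WT library 1. Atp5e, the epsilon subunit of the same stalk, was at -0.07 ± 0.09, with 459.5 ± 11.9 TPM in P2ry14-null and 467.0 ± 64.4 TPM in WT libraries.

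Atp5l, subunit g of the membrane part, averaged 5.63 ± 0.389 CPM in P2ry14-null and 6.11 ± 0.713 CPM in WT libraries, with a log2 fold change of -0.12 ± 0.09, or -0.06 without WT library 1. In its transcript 84.8% of the stretches of 50 bases also occurred in other genes, so its level and its fold change are uncertain. The 3 genes Atp5g1, Atp5g2 and Atp5g3 encode the same mature c subunit of the rotor ring from different precursors. In P2ry14-null libraries Atp5g3 made up 88.8%, Atp5g2 7.41% and Atp5g1 3.77% of their summed TPM, and in WT libraries 88.9%, 7.40% and 3.65%. The annotated exons of Atp5g1 span 4912 bases, which lowers its TPM, and with the median coding transcript as length it had 16.5 TPM in P2ry14-null and 16.2 TPM in WT libraries. With the exon union it had 11.1 ± 0.824 TPM in P2ry14-null and 10.9 ± 1.11 TPM in WT libraries. Log2 fold changes were -0.02 ± 0.08 for Atp5g1, -0.06 ± 0.08 for Atp5g2 and -0.07 ± 0.06 for Atp5g3, and without WT library 1 they were 0.04, -0.05 and -0.03.

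Near copies elsewhere in the transcriptome touched many of these genes. Of the 89 tested genes, 41 shared no stretch of 50 bases with another GENCODE vM21 gene, and 33 of these lay below 0 with a median log2 fold change of -0.04. Of the 28 that shared 10% or more, 25 lay below 0 with a median of -0.05.

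Among other nuclear genes of the pathway, likewise 0 were past the adjusted threshold of edgeR or DESeq2 in any of these lists. The assembly factors and the regulators did not share the lean below 0. Of 37 tested factors that assemble or insert subunits, 18 lay below 0 (median log2 fold change 0.02), and 1 had an unadjusted edgeR p under 0.05. That was Cox20, which helps to insert a mitochondrially encoded subunit, with 2.34 ± 0.19 CPM in P2ry14-null and 2.72 ± 0.258 CPM in WT libraries. Of 16 citric acid cycle genes 10 lay below 0 (median -0.01), with Dlst, a subunit of the oxoglutarate dehydrogenase, at -0.08 ± 0.04. Of 13 carriers, porins and coupling genes 10 lay below 0 (median -0.03), with Slc25a5, an ADP/ATP carrier, at -0.10 ± 0.06, or -0.04 without WT library 1. Of 15 tested regulators of these genes and of mitochondrial DNA expression 7 lay below 0 (median 0.01), with Nrf1 at -0.08 ± 0.04 (57.2 ± 2.29 CPM in P2ry14-null and 60.3 ± 1.01 CPM in WT libraries). The coactivator Ppargc1a was too low to be tested, at 0.0158 ± 0.0179 CPM in P2ry14-null and 0.0102 ± 0.00479 CPM in WT libraries.

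Of 7 mitochondrial antioxidant genes 6 lay below 0 (median -0.08). Sod2, the manganese superoxide dismutase, had 49.0, 43.4, 48.2, 48.1 and 42.2 CPM in P2ry14-null libraries, against 56.1, 50.9, 50.7, 63.3 and 48.7 CPM in WT libraries. WT library 5 lay within the P2ry14-null range and the other 4 above it, and the log2 fold change was -0.22 ± 0.07 (SE; edgeR quasi-likelihood unadjusted p = 0.00902, Benjamini-Hochberg adjusted p = 0.999). Ribosomal protein genes, given for comparison, lay below 0 in 82 of 93 cytosolic (median -0.16) and 55 of 78 mitochondrial genes (median -0.02), again with 0 past the adjusted threshold of either tool. At an unadjusted edgeR p under 0.05, 56 of the 93 cytosolic and 2 of the 78 mitochondrial ribosomal protein genes passed. The share of all tested genes that passed was 4.13%. Sod2 was the 1 antioxidant gene that passed, and 0 citric acid cycle genes, carriers or regulators did. In 7 of the 93 cytosolic ribosomal protein genes the libraries of the groups did not overlap, against 0.648% of all tested genes.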

How the data were processed

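The deposited table holds the authors' read counts per gene as whole numbers, with a column for each of the 10 libraries. STAR 2.5, Subread featureCounts 1.5.0-p1 and DESeq2, with mm10, are listed per the submitters' processing notes. Annotation release, strand setting and handling of reads with several matches: not given in the sources used here. Overlapping genes and near copies are therefore uncertain. Column names equal the sample titles, which gave group and replicate number. Within a group no 2 libraries agreed within sampling noise (chi-square per gene at least 24.2).

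The deposited counts were tested with edgeR 4.0.16 (R 4.3.3): TMM factors, its default filter on low counts, genotype as the only term, quasi-likelihood F test, Benjamini-Hochberg over 15586 genes and a threshold of 0.05. The script was tested on simulated data. CPM uses TMM-scaled library sizes. The SE is the log2 fold change over the square root of F, and intervals use the matching t quantile. TPM was computed from GENCODE vM21 exon unions over the 27706 rows with a length (77.6%). Alternatives were RLE, upper-quartile and total-count scaling, other low-count filters, DESeq2 1.42.0, the replicate number as a block, single libraries left out and other gene lengths.

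The genes, lists and tests were chosen with earlier results of these data known. Named genes were P2ry14 and, per complex, the 3 smallest p-values and the 2 highest levels per length, the isoform families, the untested genes and the smallest p of each other list.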

Additional observations from a re-analysis of the deposited data

Results flagged for a closer look

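Among the named genes, 104 sets of 5 libraries of a genotype were checked for a library far from the rest, and 4 had a library whose gap to the nearest other exceeded Dixon's critical value of 0.71 of the range; chance alone flags about 1 in 20 such sets. Cox7b, a small subunit of complex IV, was low in P2ry14-null library 5 at 37.4 CPM, where the other P2ry14-null libraries held 41.5 to 42.5 CPM. Ndufa1 of complex I was high in P2ry14-null library 1 at 49.9 CPM, against 42.0 to 44.0 CPM in the others, and so was Sdhc of complex II at 41.5 CPM, against 36.5 to 37.9 CPM. Uqcrfs1, the Rieske protein of complex III, was high in WT library 1 at 40.7 CPM, where the other WT libraries held 33.9 to 34.6 CPM. P2ry14-null library 1 has the fewest reads of the 10, and WT library 1 is the library that was highest in most of the genes.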

How the results depend on the processing

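In all 17 alternatives 0 oxidative phosphorylation genes passed the threshold. The count over all genes was 6, but 19 with DESeq2, 5 with total counts alone, 4 with a filter of 1 CPM in 5 libraries and 3 to 5 with single libraries left out. Genes below 0 numbered 76 of 89, and 41 to 82 with single libraries left out, with a median log2 fold change from -0.09 to 0.005; the lowest count was that without WT library 1, and the cause was not tested. Same-numbered libraries shared little deviation over all tested genes (r from -0.093 to 0.094 per number). The labels do not say whether a shared number means a shared source, and these r values cannot settle it. With the replicate number as a block 6 genes passed, 0 of them of the pathway, 72 of 89 lay below 0, the median was -0.045, and Cox7b was at 0.00; no call changed. With total counts alone log2 fold changes became 0.01 for Atp5g1, Ndufa4 and Sdhd, 0.03 for Cox7b and Ndufaf3, and 0.02 for Sdha. With single libraries left out they crossed 0 for 14 genes, from -0.33 to 0.07 (Cox6a2), -0.24 to 0.02 (Cox6b2), -0.08 to 0.04 (Atp5g1), -0.13 to 0.02 (Atp5e and Cox7a2), -0.14 to 0.00 (Cox6c), -0.04 to 0.06 (Cox7b), -0.06 to 0.05 (Ndufa4), -0.04 to 0.04 (Ndufaf3), -0.01 to 0.11 (Ndufaf6), -0.03 to 0.01 (Sdha), -0.07 to 0.02 (Sdhb), -0.04 to 0.03 (Sdhd) and -0.03 to 0.10 (Uqcrb). The other named genes kept their direction, many at less than the printed size without WT library 1. Summed TPM moved by more than the SD in 18 of 112 alternatives, all of them other gene lengths, of which the median coding transcript was added after seeing the data; it gave 10873 TPM in P2ry14-null and 10930 TPM in WT libraries for all genes. The 5 untested genes had too few reads to be tested. They ranged from 0 reads in all 10 libraries (Cox7b2 and Cox8c) to 35 in all in P2ry14-null and 41 in WT libraries (Cox4i2). Intervals cover the spread between these libraries only.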
